A study of Mus musculus with 6 samples.

Results

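The 10 genes described here encode bone morphogenetic proteins (BMPs) and growth and differentiation factors (GDFs) that are secreted ligands of the transforming growth factor beta superfamily. They were taken as the rows of the mouse matrix whose Ensembl identifier belongs to *Bmp2*, *Bmp3*, *Bmp4*, *Bmp5*, *Bmp6*, *Bmp7*, *Gdf5*, *Gdf6*, *Gdf7* and *Gdf10*, out of 22032 genes listed. All 10 were found, and 9 of them averaged 1 TPM (transcripts per 1000000 transcripts) or more across the 6 samples and were tested. *Gdf7* did not reach that level.

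RNA-seq was carried out on chondrocytes of the mouse knee, with 3 embryonic and 3 adult samples named as biological replicates. The embryos are described in the methods as E16.5, whereas the labels write the same number in weeks, and the adults were 2 month old males of the B6 strain. No mutation, transgene or treatment is named for either stage. The methods name no strain for the embryos, and neither the sex of the embryos nor the number of animals per sample is given. Cells were sorted as lineage negative (without CD31, CD45 and Ter119, the surface proteins of endothelial, white and red blood cells), negative for alkaline phosphatase and positive for the BMP receptor BMPR1B. Stage, sex and the conditions of isolation cannot be told apart in this design, nor can strain if it differed. Where 3 samples do not come from separate animals, the p-values measure only the spread between samples.

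BMP and GDF ligands are made as precursors, cut by proprotein convertases such as furin, and released as dimers. The dimers bring together type I receptors (*Bmpr1a*, *Bmpr1b*, *Acvr1*) and type II receptors (*Bmpr2*, *Acvr2a*, *Acvr2b*) on the cell surface. The receptors phosphorylate *Smad1*, *Smad5* and *Smad9*, which enter the nucleus with *Smad4*, while noggin, chordin and related proteins hold the ligands outside the cell. In the skeleton these ligands are known for inducing cartilage condensations, spacing the joints and driving the maturation of growth plate chondrocytes. By sequence they fall into BMP2/4, BMP5/6/7, GDF5/6/7 and BMP3/GDF10, and they are taken up here in that order.

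The upstream sequences of 3 members whose levels differed between the stages are shown, since they are the tested and called members whose start had an entry outside the gene's own exons. They were taken from the RefSeq promoter set of GRCm38.p6, which had entries for 5 of the 10 genes (*Bmp4*, *Bmp5*, *Bmp6*, *Gdf7* and *Gdf10*). Each runs 5′ to 3′ on the gene's own strand and ends just before its start site, and capitals mark the GC box (GGCGGG on either strand). The stretches lie at chr14:46390670-46390919 on the minus strand for *Bmp4*, chr9:75775115-75775363 on the plus strand for *Bmp5* and chr14:33923337-33923586 on the plus strand for *Gdf10*.
Bmp4: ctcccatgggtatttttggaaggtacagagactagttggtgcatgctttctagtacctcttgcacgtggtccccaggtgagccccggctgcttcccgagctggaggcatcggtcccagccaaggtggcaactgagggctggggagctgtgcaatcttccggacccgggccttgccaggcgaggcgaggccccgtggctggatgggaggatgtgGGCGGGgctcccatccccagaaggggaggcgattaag
Bmp5: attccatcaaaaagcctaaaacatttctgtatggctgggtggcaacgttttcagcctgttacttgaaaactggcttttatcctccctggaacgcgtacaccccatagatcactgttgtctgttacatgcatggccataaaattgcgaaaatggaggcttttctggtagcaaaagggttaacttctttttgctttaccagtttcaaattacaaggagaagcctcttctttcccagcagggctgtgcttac
Gdf10: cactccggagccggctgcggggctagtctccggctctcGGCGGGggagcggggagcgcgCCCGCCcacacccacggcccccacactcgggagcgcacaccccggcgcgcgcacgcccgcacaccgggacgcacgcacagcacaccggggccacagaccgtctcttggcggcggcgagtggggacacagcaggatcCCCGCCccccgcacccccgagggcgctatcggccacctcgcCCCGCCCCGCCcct

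The *Bmp5* stretch was AT-rich, with 42.8% G and C and 4 CG dinucleotides in its window of 250 bases, and held no GC box. The *Bmp4* window had 63.2% G and C, 11 CG dinucleotides and 1 GC box beginning 37 bases before the start. The *Gdf10* window was the richest of the 5, with 78.8% G and C, 35 CG dinucleotides and 5 GC boxes, of which the last pair overlaps by a base. Windows of the same length had a median of 52.4% G and C over the 32851 entries, and 32.5% of them held a GC box. None of the 5 members' windows held the TATA box (TATAAA, found in 12.4% of all windows on either strand), the CCAAT box (CCAAT, in 33.8%) or the GC-rich Smad element (GGCGCC, in 9.59%). The RUNX core (TGTGGT, in 14%) and the AP-1 element (TGANTCA, in 6.75%) were likewise not found in them. These matches describe the letters in a window and were not linked to any factor.

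Levels are given as TPM, which corrects for transcript length and adds up to 1000000 in every sample. The differences are adult minus embryonic means of log2(TPM + 1), tested with limma in the 13125 genes that averaged 1 TPM or more, with p-values adjusted over all of them by the Benjamini-Hochberg method. On this scale the difference of a low gene is understated. Of all tested genes, 23.9% were called higher and 21.4% called lower in the adult at an adjusted p under 0.05, so a call by itself was common. The 3 adult values all lay above the 3 embryonic values in 30.7% of genes and all below in 25.9%. Positions are those of the protein-coding genes in the GENCODE M21 annotation of GRCm38. Values of 3 samples are written in the order of replicates 1 to 3. In bulk samples, fewer cells of a type and less RNA per cell cannot be told apart.

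Markers of other cell types also differed between the stages. The 7 chondrocyte markers added up to 18870 to 20275 TPM in the embryo and 8445 to 11413 TPM in the adult, with 2 higher (*Sox9*, *Comp*) and 4 lower in the adult. The 4 hypertrophic chondrocyte markers summed to 37 to 95.2 TPM and 996 to 1358 TPM, with 3 higher and *Ihh* listed at 0 in all adult samples, and the 5 osteoblast markers to 11.5 to 46.4 TPM and 252 to 439.7 TPM, with 3 higher and 1 lower. *Bglap* and *Bglap2* were at 0 in every embryonic sample, were tested only through their adult levels and could only be higher. Of the same list, *Ibsp* was higher, *Dmp1* was lower and *Sp7* did not pass the test. The 6 fibroblast markers summed to 743 to 854 TPM and 226 to 354 TPM, with 4 lower and none higher, and the 4 tendon markers to 368 to 602 TPM and 293 to 409.5 TPM, with 1 higher and 2 lower. Leukocyte markers reached 5.67 to 13.7 TPM and 19 to 72.5 TPM, with *Cd3e* at 0 throughout and *Cd68* higher in the adult, and endothelial markers 10.9 to 33.3 TPM and 3.79 to 13 TPM, with *Tek* lower. Erythroid markers ranged from 0 to 103.9 TPM and from 1.41 to 33.8 TPM and muscle markers from 2.33 to 17.5 TPM and from 3.33 to 10.4 TPM, and none of these passed the test. The tendon marker *Tnmd*, called lower, and *Tek* had adult means of 0.937 and 0.6 TPM. They were tested only through their embryonic levels and could only be lower. The part of these cell types in the ligand levels was not tested.

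Of the 9 ligands tested, 2 were higher in the adult samples (*Bmp2*, *Bmp5*), 5 were lower (*Bmp3*, *Bmp4*, *Bmp7*, *Gdf5*, *Gdf10*) and 2 did not pass the test (*Bmp6*, *Gdf6*). Over all tested genes 23.9% were called higher and 21.4% lower, so the count of ligands called higher was near the common share. *Bmp3* and *Gdf6* passed the filter on low values only through their embryonic levels, since their adult means were under 1 TPM, and so had to be lower in the adult to be tested at all. The stages did not overlap for the 2 called higher, for the 5 called lower and for *Gdf6*, which was lower as well. Over all tested genes the adult values all lay above in 30.7% and all below in 25.9%. The median difference of the 9 was -2.14, beside 0.16 over all tested genes.

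**Figure D1:**
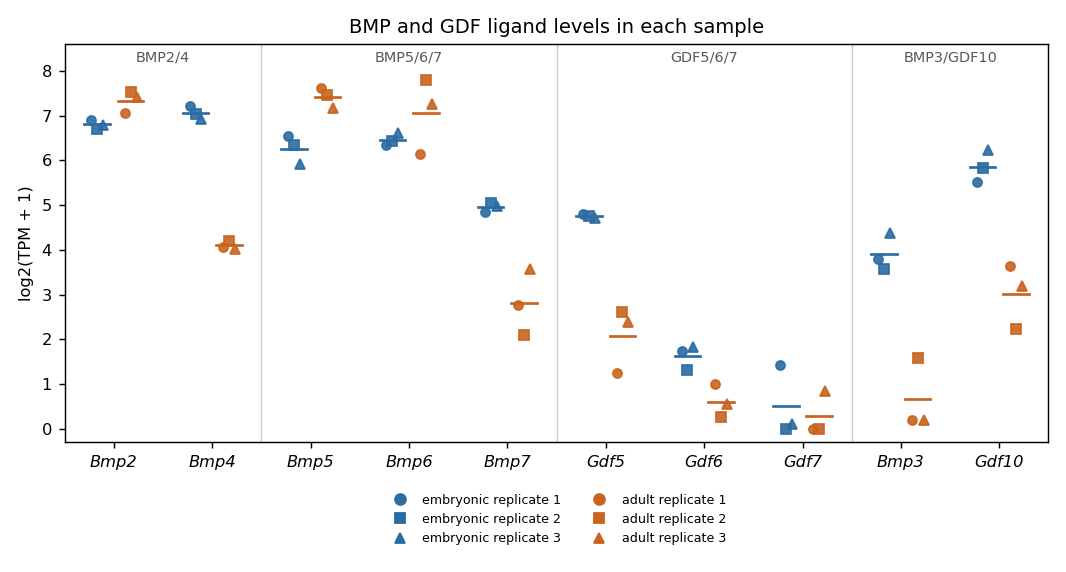
Level of each ligand in each sample, as log2(TPM + 1), with the members grouped by subfamily. Points are samples and bars are stage means (n = 3); *Bmp2* and *Bmp5* sit higher in the adult samples, *Bmp6* overlaps, and *Bmp4*, *Bmp7*, *Gdf5*, *Bmp3* and *Gdf10* sit lower.

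**Figure D2:**
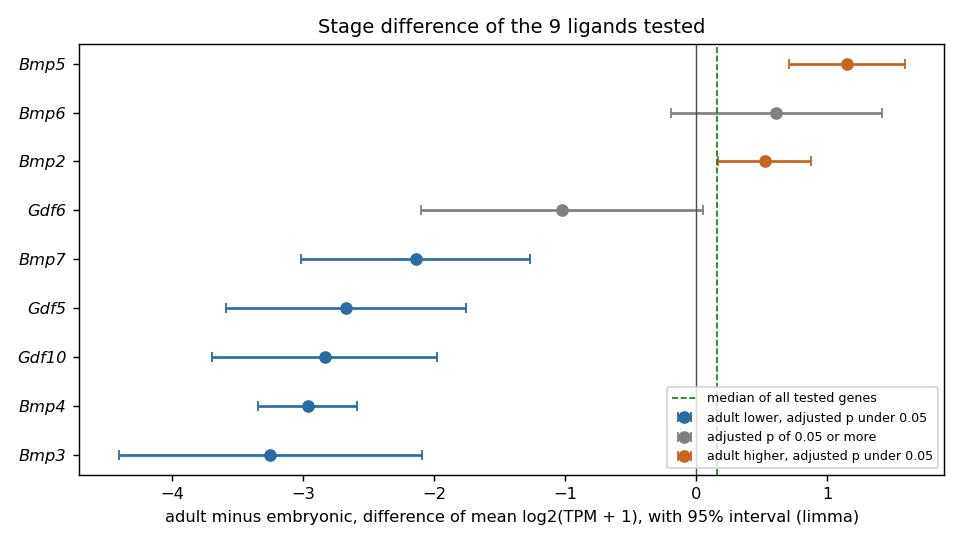
Adult minus embryonic difference of mean log2(TPM + 1) for the 9 tested ligands, with 95% intervals from limma and the median of all tested genes (0.16) as a dashed line. The lowest 5 members lie between -3.25 and -2.14, and the interval of *Bmp6* includes 0.

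*Bmp2* and *Bmp4* encode closely related proteins that induce cartilage and bone, and in these samples they moved apart. *Bmp2* (chr2:133552159-133562885, plus strand) had 119, 103.5 and 110.2 TPM in the embryo and 131, 183 and 169 TPM in the adult. The 3 adult values lay above the 3 embryonic values, the lowest of them by little. The difference was 0.52 (SE 0.16, adjusted p = 0.0241). That call was the weakest of the 7: it was lost without embryonic replicate 2 (adjusted p = 0.0814), embryonic replicate 3 (0.0698), adult replicate 2 (0.072) or adult replicate 3 (0.0567), with median-of-ratios scaling (0.069), with eBayes lacking the trend (0.0781) and with a block for the replicate number (0.0504), with differences of 0.38 to 0.66 over all alternatives.

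*Bmp4* (chr14:46383520-46390669, minus strand) had 147.5, 131 and 121 TPM in the embryo and 15.7, 17.4 and 15.3 TPM in the adult. The values were tight within each stage and lay far apart between the stages. The difference was -2.97 (SE 0.17, adjusted p = 4.23e-06), the smallest p among the members, and the mean TPM was 8.25 times higher in the embryo. The TPM ratio of *Bmp2* to *Bmp4* was 0.81, 0.79 and 0.91 in the embryo and 8.37, 10.5 and 11 in the adult. The embryonic samples thus held slightly more *Bmp4* than *Bmp2*, and the adult samples held mostly *Bmp2*. Within a sample this ratio does not change with a common scaling of TPM.

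The BMP5/6/7 group is related to the osteogenic proteins first found in bone matrix. *Bmp5* (chr9:75775364-75900310, plus strand), the gene mutated in short ear mice, had 92, 80.1 and 59.2 TPM in the embryo and 195, 175 and 142.5 TPM in the adult. All adult values lay above all embryonic values, and the mean TPM was 2.22 times higher in the adult. The difference was 1.15 (SE 0.19, adjusted p = 0.00167), between 0.97 and 1.29 over all alternatives. Of the 50-base stretches of its annotated transcripts, 46% also occur in transcripts of other genes, chiefly the opposite-strand gene *Gm26903*, which is not listed in the matrix. Whether reads were counted by strand is not given in the sources used here, so reads of that gene and of *Bmp5* cannot be told apart.

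*Bmp6* (chr13:38345107-38500302, plus strand), known from maturing growth plate chondrocytes and from iron sensing in the liver, had 80.2, 84.8 and 96.1 TPM in the embryo and 69.6, 221 and 153 TPM in the adult. Adult replicate 1 lay below all embryonic samples and the other two adult samples lay above them. The difference was 0.61 (SE 0.35, interval -0.19 to 1.41, adjusted p = 0.189), which did not pass the test. Without adult replicate 1 it was 1.07 (adjusted p = 0.00372), and without adult replicate 2 it was 0.25 (adjusted p = 0.542), so the value rests on which adult samples are used. Its SD on the log2 scale was 0.13 in the embryo and 0.84 in the adult, the widest adult spread of the 9.

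*Bmp7* (chr2:172868012-172940321, minus strand), required for kidney and eye development, had 27.8, 32.1 and 30.4 TPM in the embryo and 5.83, 3.26 and 10.9 TPM in the adult. Every adult value was below every embryonic value, although the adult samples differed among themselves by more than the embryonic ones. The difference was -2.14 (SE 0.39, adjusted p = 0.00227). *Bmp7* thus differed in direction from *Bmp5*, and the TPM ratio of *Bmp5* to *Bmp7* was 3.31, 2.49 and 1.95 in the embryo and 33.5, 53.7 and 13.1 in the adult. These ratios did not overlap between the stages.

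The GDF5/6/7 group is known from the joint. *Gdf5* (chr2:155941023-155945367, minus strand), which marks the interzone where joints form and is mutated in brachypodism mice, had 26.9, 26 and 25.2 TPM in the embryo and 1.39, 5.11 and 4.2 TPM in the adult. The embryonic values were almost the same and all of them exceeded the adult values. The difference was -2.68 (SE 0.4, adjusted p = 0.000904), and the mean TPM was 7.3 times higher in the embryo. Of its 50-base stretches, 39.2% also lie on the opposite strand in *Gm15557*, a gene that is not listed in the matrix. The opposite-strand genes *Gm15217* and *Txndc5* also overlap exons of *Bmp4* and *Bmp6*, of whose stretches 2.18% and 4.55% were shared with other genes.

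*Gdf6* (chr4:9844372-9862345, plus strand), which acts in joints of the limb and skull, was low in both stages and had 2.35, 1.49 and 2.56 TPM in the embryo and 1, 0.197 and 0.474 TPM in the adult. The stages did not overlap, but the difference of -1.02 (SE 0.47, interval -2.10 to 0.05) did not pass the test (adjusted p = 0.108). It passed only when limma was run without a trend of the variance with expression (adjusted p = 0.0238). *Gdf7* (chr12:8297918-8301954, minus strand) had 1.69, 0 and 0.0754 TPM in the embryo and 0, 0 and 0.81 TPM in the adult. With a 0 in each stage it was near the lower end of the scale, and no fold is given.

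*Bmp3* and *Gdf10* encode related proteins, and BMP3 is known to oppose the bone-forming BMPs. *Bmp3* (chr5:98854415-98884396, plus strand) had 12.9, 10.8 and 19.7 TPM in the embryo and 0.154, 2 and 0.14 TPM in the adult. All adult values were below all embryonic values, with adult replicate 2 above the other adult samples. The difference was -3.25 (SE 0.51, adjusted p = 0.00111). It was the most negative of the members with all samples, but *Bmp4* was lower without embryonic replicate 3 (-3.03 against -3.02) and *Gdf10* without adult replicate 1 (-3.15 against -3.03). The difference of *Bmp3* ranged from -4.81 with a pseudocount of 0.1 to -3.02, since at adult levels near 0 the pseudocount sets the size of the difference.

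*Gdf10* (chr14:33923587-33937983, plus strand), also called BMP3b, had 45, 55.9 and 74.1 TPM in the embryo and 11.5, 3.71 and 8.13 TPM in the adult. The stages were well separated, with the lowest embryonic sample above the highest adult sample. The difference was -2.84 (SE 0.38, adjusted p = 0.000455), and the mean TPM was 7.48 times higher in the embryo. The TPM ratio of *Gdf10* to *Bmp3* was 3.48, 5.17 and 3.75 in the embryo and 74.8, 1.86 and 58.2 in the adult. Those ratios overlapped, since adult replicate 2 had the lowest *Gdf10* and the highest *Bmp3* of the adult samples. The ratios of 74.8 and 58.2 divide by *Bmp3* values of 0.154 and 0.14 TPM, near 0, so their size is uncertain.

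The order of the levels also differed. In the embryonic samples *Bmp4* came first (133 TPM ± 13.3, SD, n = 3), followed by *Bmp2* (111 ± 7.72), *Bmp6* (87.1 ± 8.18), *Bmp5* (77.1 ± 16.6), *Gdf10* (58.3 ± 14.7), *Bmp7* (30.1 ± 2.19), *Gdf5* (26 ± 0.882), *Bmp3* (14.5 ± 4.67), *Gdf6* (2.13 ± 0.566) and *Gdf7* (0.588 ± 0.955). Neighbours overlapped between *Bmp6* and *Bmp5*, between *Bmp5* and *Gdf10* and between *Gdf6* and *Gdf7*, and the other neighbours were separate. In the adult samples *Bmp5* (171 TPM ± 26.6), *Bmp2* (161 ± 26.7) and *Bmp6* (148 ± 75.6) overlapped at the top. They were separate from *Bmp4* (16.1 ± 1.11), which was separate from *Gdf10* (7.79 ± 3.93). Below it *Bmp7* (6.67 ± 3.89), *Gdf5* (3.57 ± 1.94), *Bmp3* (0.764 ± 1.07), *Gdf6* (0.557 ± 0.408) and *Gdf7* (0.27 ± 0.468) each overlapped the next. *Bmp4* lay above 88.9% of the tested genes by embryonic mean and above 42.7% by adult mean, whereas *Bmp5* lay above 80.4% and 92.3%.

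The 10 ligands together came to 555, 526 and 539 TPM in the embryo and to 432, 611 and 504 TPM in the adult. The totals overlapped between the stages, and which mean was larger depended on the scaling of the samples. The share of the total held by each subfamily, in contrast, did not overlap for any of the 4. BMP5/6/7 held 36% ± 1.5 of the total in the embryonic samples and 62.9% ± 2.32 in the adult samples (SD, n = 3). BMP2/4 held 45.2% ± 2.56 and 34.5% ± 1.89. BMP3/GDF10 held 13.5% ± 3.57 and 1.76% ± 0.893, and GDF5/6/7 held 5.32% ± 0.223 and 0.837% ± 0.269. *Bmp2*, *Bmp5* and *Bmp6* made up 52.4%, 51% and 49.3% of the ligand TPM in the embryo and 91.8%, 94.8% and 92.1% in the adult. These 3 genes were put together after their values were seen. The adult total was thus close to the embryonic one but was carried by fewer genes.

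**Figure D3:**
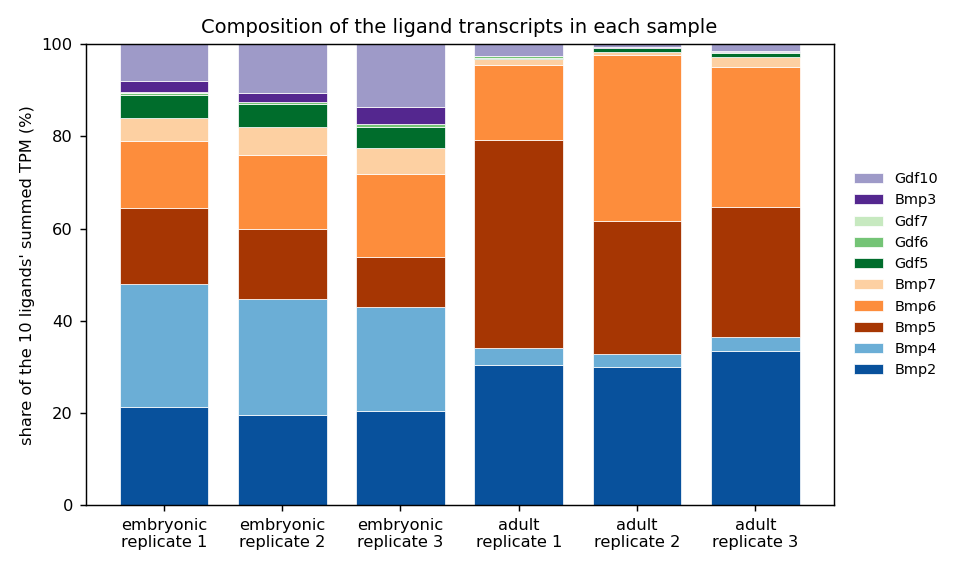
Share of each ligand in the summed TPM of the 10 ligands, in percent, for each of the 6 samples. *Bmp2*, *Bmp5* and *Bmp6* fill 91.8% to 94.8% of the adult bars and 49.3% to 52.4% of the embryonic bars, and *Bmp4* falls from 22.5% to 26.6% in the embryonic bars to 2.85% to 3.63% in the adult bars.

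The adult samples varied more than the embryonic samples. The SD of log2(TPM + 1) was larger in the adult stage for 7 of the 9 tested ligands, the exceptions being *Bmp4* and *Bmp5*, and for 62.1% of all tested genes. Adult replicate 1 had the lowest adult *Bmp2*, *Bmp6* and *Gdf5* and the highest adult *Bmp5*, *Gdf6* and *Gdf10*. Its *Bmpr1b* was also the lowest, at 4.51 TPM against 18.5 and 13.4 TPM in the other two adult samples, and whether this moved the ligand levels was not tested. Across the same adult samples, the share of *Bmp5* in the ligand total was 45.2% in replicate 1 and 28.7% and 28.2% in the others, and that of *Bmp6* was 16.1%, 36.1% and 30.3%.

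The genes with profiles nearest to the members at either end of the range were found by Euclidean distance between log2(TPM + 1) values centred on each gene's mean, over the 6 samples. For *Bmp5*, the tested member with the most positive difference over all samples (*Bmp6* exceeded it without adult replicate 1, 1.07 against 1.05), they were *Pot1a* (distance 0.225), *Sec24c* (0.243) and *Extl1* (0.275). *Pot1a* protects telomeres, *Sec24c* is a coat protein of vesicles leaving the endoplasmic reticulum, and *Extl1* acts in heparan sulphate synthesis. Their differences were 1.05 (adjusted p = 0.0148), 1.14 (0.00578) and 1.15 (0.00208). For *Bmp3*, the most negative over all samples, they were *S1pr3* (distance 0.382), a receptor for sphingosine 1-phosphate, *Mcoln2* (0.495), a cation channel, and *Fads2* (0.583), a fatty acid desaturase. Their differences were -3.38 (adjusted p = 0.000203), -3.19 (0.00133) and -3.46 (0.000668). *Mcoln2* had 0.297, 2 and 0 TPM in the adult and passed the filter only through its embryonic level. Nearness was measured over these same samples, so the sign and size of the differences of all 6 neighbours were set by the choice.

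The other genes of the pathway were read from 6 lists, whose counts stand beside 23.9% called higher and 21.4% called lower over all tested genes. Among 20 other BMP, GDF, activin and nodal ligands, 19 were listed in the matrix and only 7 passed the filter, with 2 called higher, 1 called lower and a median difference of 0.20. *Gdf15*, a stress-induced cytokine of the superfamily, had 4.05, 11 and 7.46 TPM in the embryo and 41.1, 71.2 and 61.6 TPM in the adult (difference 2.84, adjusted p = 0.000354). *Lefty1*, a secreted nodal inhibitor, was at 0.06 TPM or less in the embryo and at 1.63 to 6.57 TPM in the adult (2.20, adjusted p = 0.00949). It was tested only through its adult level and so could only be higher. The median of the list includes *Lefty1* and would be negative without it. *Gdf11* was lower, at 8.38 to 12.5 TPM and 0.08 to 2.49 TPM (-2.49, adjusted p = 0.00424). *Inhba*, the activin A subunit, had the highest level of this list, with 281 to 344 TPM in the embryo and 175 to 298 TPM in the adult, and did not pass the test (-0.44, adjusted p = 0.10).

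Of 13 receptors and co-receptors, 12 were tested, 1 was higher and 4 were lower, with a median of -0.53. *Tgfbr3*, the co-receptor betaglycan, had 84.4, 59.4 and 74.7 TPM in the embryo and 269, 393 and 234 TPM in the adult (2.00, adjusted p = 0.000137). *Acvrl1*, a type I receptor best known from endothelium, was at 7.64 to 15.2 TPM and 0 to 2.59 TPM (-2.68, adjusted p = 0.00419), and *Ror2*, a tyrosine kinase of growth plate cartilage, at 40.9 to 46.9 TPM and 4.23 to 11.7 TPM (-2.47, adjusted p = 0.000523). *Bmpr2* and *Bmpr1a* were the remaining pair called lower. *Bmpr1b*, whose protein was used to sort the cells and which is the main receptor of GDF5, had 20.3, 19 and 16.4 TPM in the embryo and, with the adult values given above, did not pass the test (difference -0.76, adjusted p = 0.20).

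The extracellular antagonists and modulators held 19 genes, of which 17 were tested, 4 were higher and 8 were lower, with a median of -0.77. *Fstl1*, a secreted glycoprotein, had 2049, 1854 and 2020 TPM in the embryo and 114, 96.6 and 321 TPM in the adult (-3.69, adjusted p = 0.000116). *Kcp*, a chordin-like protein, was at 7.98 to 17 TPM in the embryo and at 0.8 TPM or less in the adult (-3.47, or -5.66 with a pseudocount of 0.1, adjusted p = 0.000519 with a pseudocount of 1). *Chrdl2*, also related to chordin, was higher, at 0.88 to 5.72 TPM and 11.1 to 21.1 TPM (2.12, adjusted p = 0.00974), as was *Nbl1*, a cystine-knot antagonist, at 75.8 to 99.4 TPM and 244 to 394 TPM (1.84, adjusted p = 0.000137). Of the 8 called lower, 4 (*Chrdl1*, *Kcp*, *Sostdc1* and *Vwc2*) had adult means under 1 TPM and were tested only through their embryonic levels, so that they could only be lower, and the others were 4 lower and 4 higher. The median of -0.77 includes *Chrdl1*, *Kcp*, *Sostdc1* and *Vwc2*, which lower it. With a filter of at least 5 TPM, 5 were called lower. Among them *Nog*, *Chrd*, *Bmper* and *Kcp* had adult means under 5 TPM, so under that filter they too could only be lower.

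All 8 Smads and Smad ubiquitin ligases were tested, with 2 higher, 2 lower and a median of 0.10. *Smad1*, a transducer of BMP signals, had 90, 71.6 and 91.8 TPM in the embryo and 23.6, 23.3 and 15.8 TPM in the adult (-1.98, adjusted p = 0.000152). The inhibitory Smads moved apart, with *Smad7* lower (-1.19, adjusted p = 0.000452) and *Smad6* higher (1.30, adjusted p = 0.0012), and the ubiquitin ligase *Smurf1* was higher (0.64, adjusted p = 0.00957).

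Of the 11 BMP response genes, all tested, 4 were higher and 1 was lower, with a median of -0.24, so the calls and the median differ in sign. The homeobox genes *Msx1* (3.31, adjusted p = 0.000659) and *Dlx5* (2.94, adjusted p = 0.000181) were higher. *Msx1* had 0.95, 3.51 and 1.61 TPM in the embryo and 35.2, 36.6 and 15.4 TPM in the adult. *Dlx5* is also an osteoblast regulator. The sort took cells negative for alkaline phosphatase, a protein of osteoblasts and hypertrophic chondrocytes. Its transcript *Alpl* was at 14.4 to 17.9 TPM in the embryo and at 32.7 to 38.6 TPM in the adult (1.13, adjusted p = 0.00292). *Alpl* is listed here as a hypertrophic chondrocyte marker. Of that list *Col10a1* (5.29, adjusted p = 0.000137) and *Mmp13* (4.28, adjusted p = 2.88e-05) were higher too, and *Ihh* was not tested. Of the 5 osteoblast markers, *Bglap*, *Bglap2* and *Ibsp* were higher, *Dmp1* was lower and *Sp7* did not pass the test. As given above, *Bglap* and *Bglap2* could only be higher. The part of either cell type in the level of *Dlx5* was not tested. *Hey1*, a transcriptional repressor, was lower (-2.16, adjusted p = 0.0317), a call lost under 7 alternatives, among them no filter (0.0667) and leaving out any of the embryonic samples (0.073 to 0.103). The direct targets *Id1*, *Id2* and *Id3* had differences of -0.26, -0.24 and -0.27, and none passed the test (adjusted p = 0.38, 0.24 and 0.15). *Id4*, of the same family, was called higher (0.84, adjusted p = 0.00338), and so was *Atoh8* (1.68, adjusted p = 0.00026).

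Of 7 proprotein convertases and astacin proteinases, 6 were tested, none was higher, 2 were lower and the median was 0.14. *Bmp1*, which despite its name is a proteinase that cuts procollagens and chordin, had 103, 87.5 and 91.3 TPM in the embryo and 25.1, 25.9 and 33.1 TPM in the adult (-1.71, adjusted p = 0.000114). *Pcsk5*, a convertase, was lower as well (-0.90, adjusted p = 0.0401), but its call was lost without any of the embryonic samples in turn (0.0654 to 0.134), without adult replicate 1 (0.0885) or adult replicate 3 (0.0706), with no filter (0.059), without the 20 highest genes (0.0581) and with a block for the replicate number (0.0749). *Furin*, which cuts BMP precursors, was at 117 to 137 TPM in the embryo and at 120 to 211 TPM in the adult and did not pass the test (0.37, adjusted p = 0.16).

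**Figure D4:**
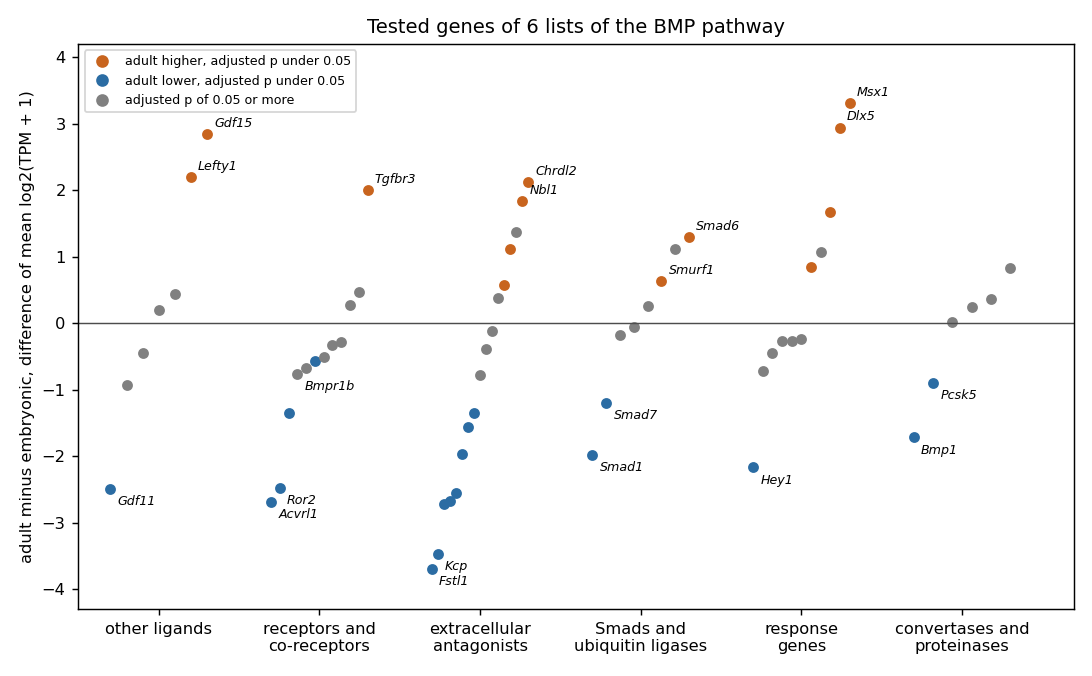
Adult minus embryonic difference of mean log2(TPM + 1) for each tested gene of 6 lists of the BMP pathway, with genes named by rule labelled. Each list except the convertases and proteinases has calls in both directions, and the extremes are *Fstl1* at -3.69 and *Msx1* at 3.31.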

How the data were processed

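RNA-seq of 6 mouse knee chondrocyte samples was used. The authors mapped single-end reads of 50 bases to GRCm38, estimated transcript levels with RSEM (version not given in the sources used here) and deposited log2(TPM + 1) per gene. The labels name a Kapa mRNA-Seq kit, and the methods a Nugen Ovation kit with a Kapa LTP library, so the priming behind the values is uncertain. TPM keeps no sequencing depth, so the depth behind a value is unknown, and the precision rests on the spread of 3 samples per stage. Genes listed at 0 numbered 7314 to 7656 per embryonic and 7570 to 8294 per adult sample, and the 20 highest genes held 10.7% to 11.1% and 14.6% to 17.7% of the TPM. In 6 cases a value of 0 stood beside at least 20 TPM in the other two samples of the stage.

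Symbols and positions came from GENCODE M21 of GRCm38, which matched 21902 identifiers and left 130 unmatched. Stages were compared with limma 3.58.1 in R 4.3.3 (lmFit, eBayes with trend) on log2(TPM + 1), keeping genes that averaged 1 TPM or more. The pseudocount was 1, the threshold a Benjamini-Hochberg adjusted p under 0.05. EBSeq, named in the methods, needs counts and was not used here. The procedure was tested on simulated data.

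The members, lists and tests were chosen with earlier results of these data known. All 10 ligands are named, with the 3 nearest profiles of the members at either end, up to 2 called genes per direction from each list, and *Bmpr1b*. *Bmpr1a*, *Bmpr2*, *Inhba*, *Furin*, *Id1*, *Id2*, *Id3*, *Id4*, *Atoh8*, *Chrdl1*, *Sostdc1*, *Vwc2* and the marker genes were named after their values were seen. So were *Nog*, *Chrd* and *Bmper*. The fit was repeated with a pseudocount of 0.1, with the filter removed or raised to 5 TPM, after quantile normalization, after scaling by the median of ratios or to the total of all but the 20 highest genes, with robust eBayes or eBayes lacking the trend, with a block for the replicate number, at an adjusted p of 0.01, and leaving out 1 sample at a time. Tables used pandas 2.3.3 and numpy 2.4.6 in Python 3.11.15, and figures matplotlib 3.10.9.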

Additional observations from a re-analysis of the deposited data

How the results depend on the processing

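None of the 9 tested ligands changed direction under any of the 16 alternatives, and 133 of 143 values kept their direction and their side of the threshold. The count of ligands lower in the adult was 5 throughout, apart from 6 when eBayes was run without trend. The count of ligands higher was 2, and 1 with median-of-ratios scaling, eBayes without trend, the replicate number as a block or an adjusted p under 0.01. In each of these *Bmp2* was lost, and leaving out each sample in turn gave 1 to 3 higher. With the replicate block the adjusted p of *Bmp2* was 0.0504, and 2871 genes were higher and 2559 lower over all genes. Over all tested genes, samples with the same number did not deviate together (correlations of -0.0088, -0.0169 and -0.0223). The replicate numbers name no animal, litter or day shared between the stages, and a pairing that touches only some genes was not tested.

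The embryonic mean of the summed ligand TPM was 540 and the adult mean 516. They were 556 and 480 with median-of-ratios scaling and 590 and 603 without the 20 highest genes, so the order of the totals depends on the scaling. Leaving out a sample gave 532 to 547 in the embryo and 468 to 557 in the adult. The median difference of all tested genes, 0.16, was 0.03, 0.09 and 0.25 with median-of-ratios, quantile and rescaled values, and median-of-ratios gave 2613 genes higher and 3234 lower. Among the pathway lists, the other ligands gave 1 to 2 genes in either direction, the antagonists 5 to 8 lower, the response genes 0 to 3 lower and the convertases and proteinases 0 to 1 higher and 1 to 2 lower. Without counts, no error of counting can be set on the values under 1 TPM of *Bmp3*, *Gdf6* and *Gdf7*.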
